A study of Mus musculus with 9 samples.

Results

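The comparison described here set the brain of mice that carried both an amyloid transgene set and a Cd5l transgene (5xFAD/Cd5l tg/wt, also called the double genotype here) against the brain of wild-type mice. It used 6 of the 9 RNA sequencing libraries of the series, 3 per genotype, each labelled as a separate mouse of 7 months of age. The remaining 3 libraries came from 5xFAD mice, which carry the amyloid transgenes without the Cd5l transgene, and these entered as a reference beside the genes that differed from wild-type. Every library was made from total RNA of the whole brain without the cerebellum. No gene was chosen by its level: all 17575 of 56748 annotated genes that passed a filter on low counts were tested.

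The 5xFAD mouse expresses human transgenes carrying familial Alzheimer mutations from Thy1 promoter cassettes, which act mainly in neurons, and it deposits amyloid early. The added transgene places mouse Cd5l under the human PDGF-B promoter, per the series' design text. CD5L, also called AIM, is a secreted protein of the scavenger receptor cysteine-rich family that tissue macrophages of liver and spleen make and that binds lipids and cell debris. Brain with the Cd5l transgene but without amyloid was not analysed here. In amyloid-bearing brain, microglia, the resident macrophages, gather at plaques and turn on a programme that depends on the lipid receptor TREM2 and its adaptor TYROBP. They then make more lysosomal proteases, lectins and complement, while astrocytes raise the filament protein GFAP.

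The transgene labels were checked first. Cd5l (chr3:87265188-87278380, GRCm39) held 0, 1 and 0 counts in wild-type brain and 2553, 2822 and 3551 counts in the double genotype. The 3 5xFAD libraries held 0 counts each. As CPM (counts scaled to library size) Cd5l stood at 170, 190 and 200 in the double genotype, and the ratio to wild-type, from 8926 counts against 1, was 9030 with a 95% interval of 1620 to 357000 for counting error only. The counts do not separate transgene from endogenous transcripts. Of the markers of macrophages outside the brain, Clec4f, Vsig4, Timd4, Marco and Spic had between 0 and 9 counts each over all 9 libraries and were not tested. Of the 7 tested, Cd5l and Adgre1 rose and 5 were not called. Adgre1 (F4/80), which microglia also express, read 5.99, 4.99 and 5.74 CPM in wild-type and 10.8, 8.63 and 9.71 CPM in the double genotype (adjusted p = 0.0239), a call lost without wild-type library 1, 2 or 3 (0.0527, 0.0890 and 0.0663) or double-genotype library 3 (0.0871). With Cd5l included, the 7 genes summed to 45.2 to 49.0 CPM in wild-type and 232 to 256 CPM in the double genotype.

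Thy1 (chr9:43954681-43959876), whose promoter drives the amyloid transgenes, stood at 653, 662 and 590 CPM in wild-type and at 1857, 1663 and 1981 CPM in 5xFAD/Cd5l tg/wt brain. It was higher by a log2 fold change of 1.53 ± 0.08 (SE, adjusted p = 3.64e-07), and the 5xFAD libraries, at 1599, 1444 and 1548 CPM, were likewise above all wild-type libraries. Mouse App read 2130, 1960 and 1925 CPM in wild-type and 2050, 2031 and 1909 CPM in the double genotype, a log2 difference of -0.01 ± 0.06 (adjusted p = 0.982). Psen2, a gamma-secretase subunit gene, differed by -0.13 ± 0.14 and also did not pass the test. The counts are assigned to mouse genes, so human transgene transcripts are not measured by them, and Thy1 counts can include Thy1 sequence carried by the transgenes.

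Total counts ranged from 14575416 to 17865150 over the 9 libraries. Some libraries stood apart in genes of particular brain regions. Wild-type library 3 was high in cerebellar genes: Cbln3, a cerebellin of granule cells, read 192 CPM there against 18.5 and 2.98 CPM in wild-type libraries 1 and 2. Libraries 2 and 3 of 5xFAD/Cd5l tg/wt held almost no hypothalamic peptide transcripts: Hcrt (orexin) read 7.19, 0 and 0 CPM over the 3 libraries and Pmch (melanin-concentrating hormone) 31.2, 0.135 and 0.169 CPM. The wild-type libraries held Hcrt at 12.2, 4.32 and 5.26 CPM and Pmch at 38.9, 25.5 and 23.6 CPM. The 5xFAD libraries were lower than either other genotype in a list of splicing-related genes and nuclear-retained RNAs, whose 32 measured members summed to 5382, 5188 and 5697 CPM in 5xFAD, against 8584, 9879 and 8626 CPM in wild-type and 8735, 11460 and 11490 CPM in the double genotype. These facts are repeated below where they touch a gene group.

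Against wild-type brain, 242 genes rose and 35 fell in 5xFAD/Cd5l tg/wt brain at an adjusted p under 0.05 (edgeR's quasi-likelihood test with Benjamini-Hochberg adjustment over all tested genes). Together these 277 genes were 1.58% of those tested, 1.38% higher and 0.199% lower. Of the rising genes 171 changed more than 2-fold and 44 more than 4-fold, and of the falling genes 18 and 10. The median log2 fold change was 1.31 among rising genes, -1.004 among falling genes and 0.0008 among all tested genes. The median wild-type level was 4.03 CPM for the rising genes, against 17.1 CPM for all tested genes and 24.7 CPM for the falling genes. The wild-type level is one side of the comparison that called these genes. These medians are thus set in part by the call and the count filter. Protein-coding genes made up 237 of the 242 rising genes and all 35 falling genes. Since whole tissue was sequenced, more cells of a type and more RNA per cell cannot be told apart for any gene below.

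The size of the set depended on single libraries. Leaving out 1 of the 9 libraries at a time gave 158 to 686 genes, with 146 to 368 higher and 12 to 318 lower. The highest count came without double-genotype library 1 (368 higher, 318 lower), the lowest without library 3 of that genotype (146 higher, 12 lower). The falling genes numbered 73 and 19 with wild-type library 2 or 3 left out, without 5xFAD library 1, 2 or 3 they numbered 15, 21 and 22, and without double-genotype library 2 they numbered 18. Without the 3 libraries that stood apart in regional genes, 252 genes rose and 108 fell. Of the 277 genes, 163 were among those 360.

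**Figure D1:**
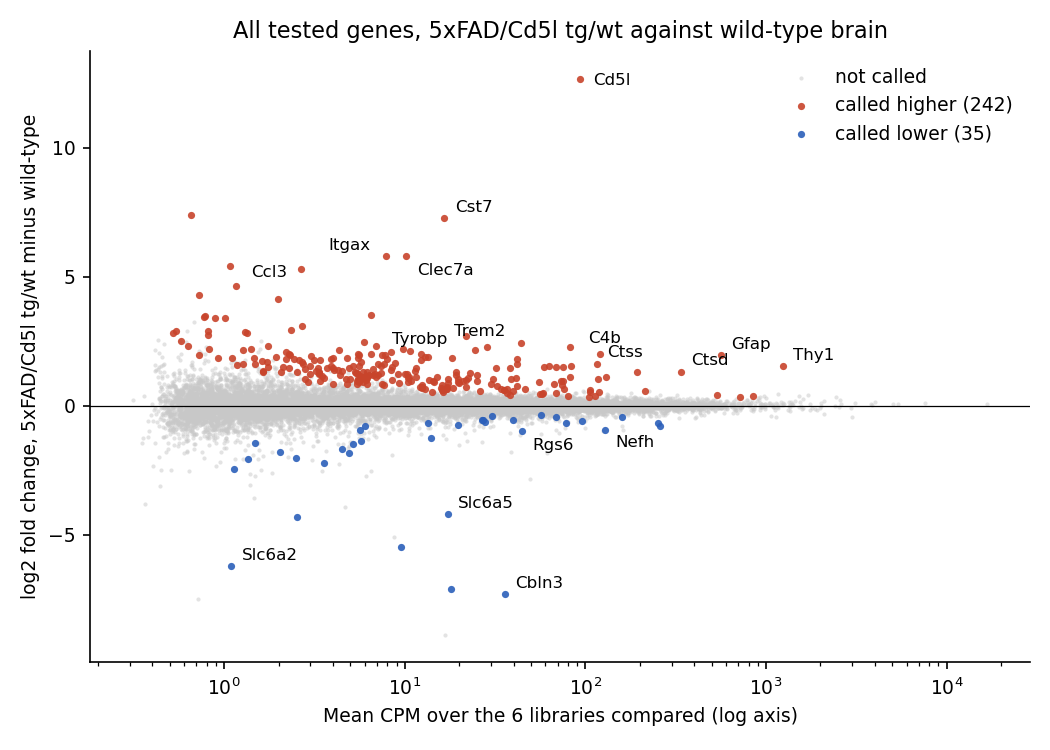
Each point is 1 of the 17575 tested genes, with its mean CPM over the 6 libraries on a log axis and its log2 fold change, 5xFAD/Cd5l tg/wt minus wild-type, on the vertical axis. The 242 red genes that rose lie mostly at low to middle levels and reach 12.67 for Cd5l, while the 35 blue genes that fell reach -7.30 for Cbln3.

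Genes of the disease-associated microglia programme rose in the double genotype. Of 35 list members, all measured, 21 rose and none fell, against 1.38% of all tested genes rising and 0.199% falling. The same shares stand beside the counts of every list below. At 0.199%, a list of this size with no falling gene is not set apart by that. The list median was 1.13. This list and those below were chosen with earlier results of these data known. Their counts describe the members and are not independent support for a programme. Cst7 (chr2:150412335-150420864), which encodes the protease inhibitor cystatin F, read 0.233, 0.182 and 0.207 CPM in wild-type and 38.7, 28.9 and 31.2 CPM in the double genotype. Its log2 fold change was 7.25 ± 0.36 (adjusted p = 3.64e-07), and no library of one genotype came near the other. Trem2 (chr17:48653429-48661175), the lipid receptor, read 15.8, 14.1 and 11.0 CPM in wild-type and 81.2, 62.1 and 79.1 CPM in the double genotype, a change of 2.44 ± 0.16 (adjusted p = 5.44e-06). Its adaptor gene Tyrobp read 8.84, 9.85 and 8.16 CPM against 42.2, 31.1 and 46.8 CPM, a change of 2.16 ± 0.16 (adjusted p = 8.24e-06).

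The beta-glucan receptor gene Clec7a rose from 0.581, 0.122 and 0.346 CPM to 24.0, 14.8 and 21.3 CPM, by 5.80 ± 0.32. The integrin gene Itgax (CD11c) rose from 0.407, 0.122 and 0.277 CPM to 21.8, 9.98 and 14.8 CPM, by 5.81 ± 0.43. For both receptors, wild-type brain sat below 1 CPM in every library, and library 2 was the lowest of the double genotype. Cd68, an endosomal glycoprotein of phagocytes, changed by 2.71 ± 0.20, Lyz2 (lysozyme) by 2.25 ± 0.18, Cd9 (a tetraspanin) by 0.92 ± 0.11 and Lpl (lipoprotein lipase) by 1.05 ± 0.15. Ccl3, a chemokine, rose by 5.30 ± 0.40 from a wild-type mean under 1 CPM. The lysosomal glycoprotein gene Gpnmb was called at 2.096 ± 0.449 (adjusted p = 0.0376), but not without wild-type library 1, 2 or 3 (adjusted p = 0.0936, 0.113 and 0.0937) or 5xFAD library 1 or 3 (0.0688 and 0.0596). Its library 1 of the double genotype read 32.0 CPM against 9.31 and 10.8 CPM in the others.

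Not every member of the programme was called. Apoe, the lipid carrier of astrocytes and microglia, read 1439, 1369 and 1157 CPM in wild-type and 2049, 1440 and 1645 CPM in the double genotype, a difference of 0.37 ± 0.11 that did not pass (adjusted p = 0.166). Spp1, which encodes osteopontin, read 27.1, 24.1 and 47.0 CPM against 26.5, 10.7 and 19.5 CPM, a difference of -0.79 ± 0.28 (adjusted p = 0.263). The libraries of the 2 genotypes overlapped for Spp1 and were separated by a narrow gap for Apoe. Apoe was called higher without the 3 libraries that stood apart in regional genes (adjusted p = 0.000187) and with no filter on low counts (1.94e-05). Its difference was positive in every setting, from 0.22 to 0.54.

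The same genes were also high in 5xFAD brain. Cst7 read 29.5, 20.2 and 39.9 CPM in 5xFAD, and the log2 difference of 5xFAD/Cd5l tg/wt minus 5xFAD was 0.14 ± 0.19 (adjusted p = 0.701). Trem2 read 54.7, 45.8 and 66.3 CPM in 5xFAD and differed by 0.42 ± 0.15 (adjusted p = 0.118), while Clec7a, at 12.7, 10.6 and 13.5 CPM, differed by 0.71 ± 0.21 (adjusted p = 0.0650). Among the 35 members, 1 (Lilrb4a, described further on) was higher than in 5xFAD. A difference that missed the threshold does not show equal levels.

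**Figure D2:**
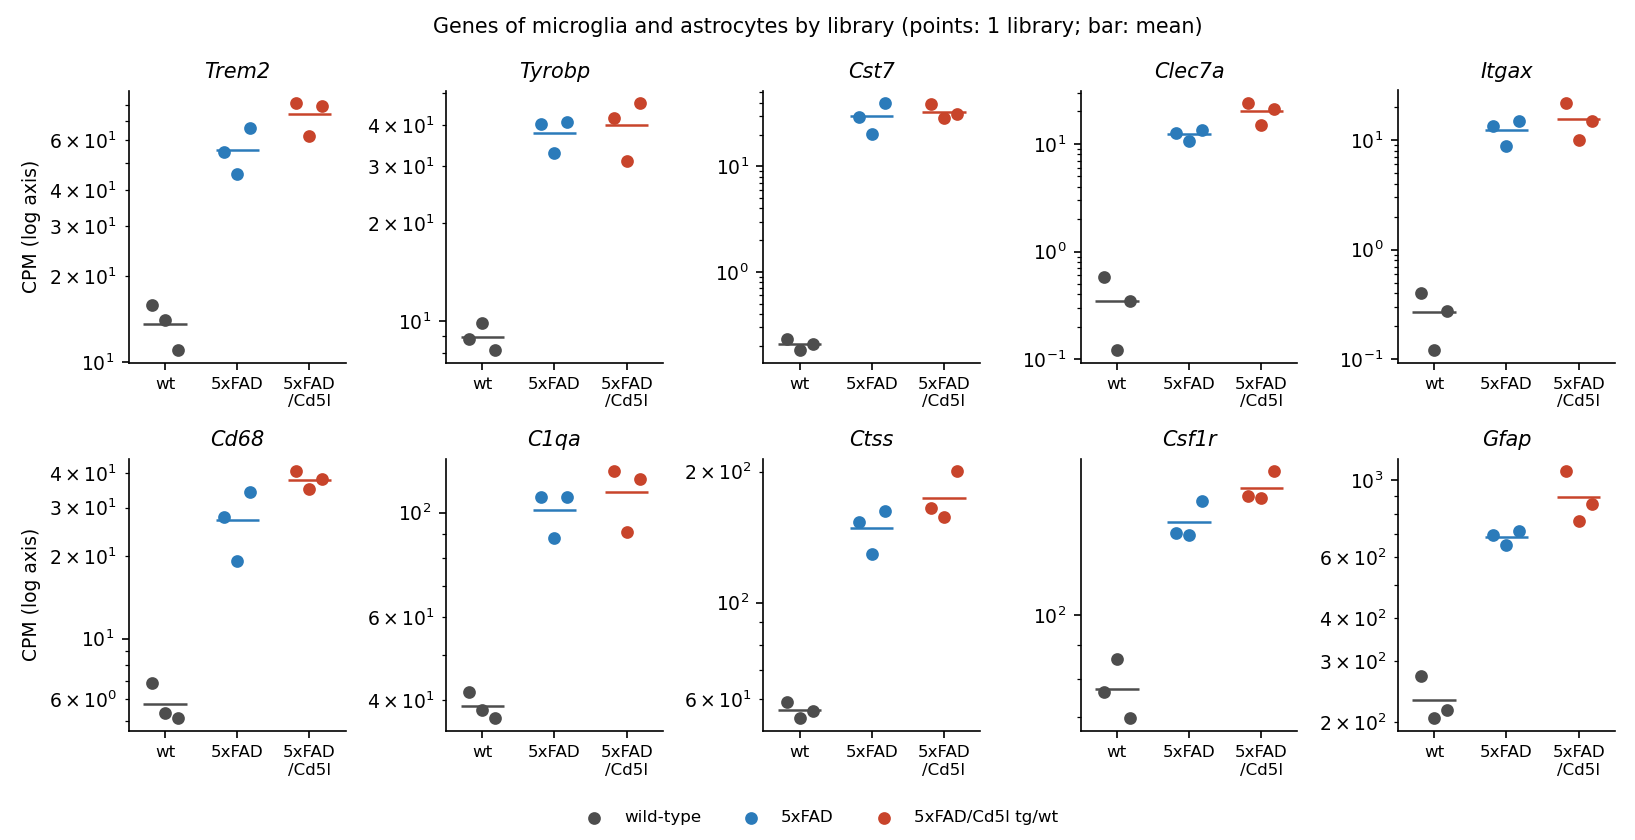
Level of 10 genes in CPM (log axis) in each library of the 3 genotypes; points are libraries and bars are the means of 3. In every panel the wild-type libraries sit below all libraries of the other 2 genotypes, while the 5xFAD and 5xFAD/Cd5l tg/wt libraries overlap for Cst7, Tyrobp and Itgax, and do not for Clec7a and Gfap.

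Homeostatic microglia genes rose beside the disease-associated ones. Of 22 measured members 14 rose and none fell, beside 1.38% and 0.199% of all tested genes, with a median of 0.79. Csf1r, the growth factor receptor on which microglia depend for survival, read 76.3, 85.7 and 69.6 CPM in wild-type and 152, 151 and 166 CPM in the double genotype (1.02 ± 0.09, adjusted p = 2.86e-05). Cx3cr1, the fractalkine receptor, read 47.2, 60.6 and 46.3 CPM against 102, 90.4 and 103 CPM (0.94 ± 0.14). Fcrls (1.62 ± 0.14), Gpr34 (1.26 ± 0.11) and Tgfbr1 (0.76 ± 0.08), a receptor of the TGF-beta signal that maintains microglia, moved the same way.

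The changes in homeostatic genes were smaller than those of Cst7 or Clec7a, and some members did not pass. Tmem119, a microglial surface protein, read 18.7, 20.3 and 18.6 CPM in wild-type and 25.1, 24.8 and 23.7 CPM in the double genotype, without overlap, and its difference of 0.36 ± 0.11 missed the threshold (adjusted p = 0.154). The purine receptor gene P2ry12 was called at 0.59 ± 0.11 (adjusted p = 0.0209), and the call was lost without wild-type library 1 (adjusted p = 0.0910) or double-genotype library 2 or 3 (0.0723 and 0.112). It was also lost without the 3 libraries that stood apart in regional genes (0.192). Of the 22 members none was called against 5xFAD. Markers of border-associated macrophages, which line vessels and meninges, gave no call among 8 measured members, and their summed level was 49.9 to 57.9 CPM in wild-type and 45.1 to 60.2 CPM in the double genotype.

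Receptors of phagocytosis and antibody binding formed the third group of microglial genes. Of 30 measured members 17 rose and none fell, with a median of 0.86. Mpeg1 (chr19:12438143-12442647), the pore-forming perforin-2 of phagocytes, had the smallest p after Cd5l (adjusted p = 1.03e-07): it read 28.0, 27.4 and 29.9 CPM in wild-type and 140, 126 and 141 CPM in the double genotype, a change of 2.26 ± 0.10. Itgb2, the integrin chain shared by the complement receptors CR3 and CR4, changed by 1.88 ± 0.13 and its partner Itgam (CD11b) by 1.11 ± 0.16. The Fc receptor genes Fcgr3 (1.31 ± 0.09), Fcgr2b (2.19 ± 0.17) and Fcgr1 (1.24 ± 0.18) rose with their signalling chain Fcer1g (1.47 ± 0.16). The call for Fcgr1 was lost without the 3 libraries that stood apart in regional genes (adjusted p = 0.0653). Fcgr genes are near copies of each other, so reads may be shared between them. The oxidase subunit gene Cyba rose by 1.24 ± 0.17. Genes of the myeloid regulators Irf8 (1.78 ± 0.13) and Spi1 (1.01 ± 0.21, adjusted p = 0.0313) were also higher, the latter call being lost without wild-type library 1, 2 or 3 (adjusted p = 0.0625, 0.0921 and 0.114), 5xFAD library 3 (0.0551) or double-genotype library 3 (0.152).

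Spi1 encodes PU.1, the factor that defines macrophage gene expression, and the promoters of the rising genes were searched for its core binding letters, GAGGAAGT, on both strands of the 250 bases before each annotated start (RefSeq, GRCm38.p6, an older build than that of the counts). A window was found for 182 of the 242 rising genes, and 18 of these, or 9.89%, held the motif. It was present for 2.79% of all 27025 genes with a window, for 2.65% of the 12365 tested genes with one, and for 1 of 30 falling genes. The E-box CACGTG, part of the element that lysosomal genes share, stood in 8.24% of rising genes with a window, below the 9.46% of tested genes and above the 6.86% of all genes with one. Among rising genes of the lysosomal list described below, 3 of the 15 with a window held the E-box, and 3 of 30 falling genes did. These counts are too small to compare their shares with the others. A match is a description of letters and not a measured binding site. The 4 rising genes of smallest p with a PU.1 match are shown 5′ to 3′ on the gene's strand, with the matching letters (or their reverse complement ACTTCCTC) in capitals, because they show where the letters fall in promoters of the microglial genes that rose.
C1qc, chr4:136892915-136893164, minus strand: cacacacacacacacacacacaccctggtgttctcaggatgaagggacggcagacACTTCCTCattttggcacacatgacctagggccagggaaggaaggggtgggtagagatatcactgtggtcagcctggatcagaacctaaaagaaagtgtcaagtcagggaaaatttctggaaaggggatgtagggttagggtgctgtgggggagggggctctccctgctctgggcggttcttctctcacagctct
Cd37, chr7:45238840-45239089, minus strand: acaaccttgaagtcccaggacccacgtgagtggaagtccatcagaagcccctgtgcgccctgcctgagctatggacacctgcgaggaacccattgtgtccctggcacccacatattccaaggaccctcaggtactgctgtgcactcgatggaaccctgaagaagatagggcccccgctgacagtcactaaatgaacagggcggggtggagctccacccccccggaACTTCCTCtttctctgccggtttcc
Havcr2, chr11:46454681-46454930, plus strand: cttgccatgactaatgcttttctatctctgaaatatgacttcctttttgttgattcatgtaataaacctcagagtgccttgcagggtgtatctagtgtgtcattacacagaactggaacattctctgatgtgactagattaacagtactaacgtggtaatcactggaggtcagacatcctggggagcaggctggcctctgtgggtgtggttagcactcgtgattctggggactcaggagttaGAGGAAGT
Inpp5d, chr1:87620062-87620311, plus strand: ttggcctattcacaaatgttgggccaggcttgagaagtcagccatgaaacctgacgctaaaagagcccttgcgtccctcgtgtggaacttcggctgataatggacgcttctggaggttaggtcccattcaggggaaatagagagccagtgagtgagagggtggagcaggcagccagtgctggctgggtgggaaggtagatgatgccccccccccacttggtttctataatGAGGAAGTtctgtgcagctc

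In Havcr2, Inpp5d and Cd37 the letters began 8, 20 and 25 bases before the annotated start, and in C1qc 195 bases before it. Havcr2 encodes the checkpoint receptor TIM-3 and rose by 1.83 ± 0.21, from 1.92, 2.92 and 2.35 CPM to 10.5, 6.74 and 8.35 CPM. Inpp5d encodes the phosphatase SHIP1, a brake on TREM2 signalling, and rose by 0.86 ± 0.12. Cd37, a tetraspanin of leukocytes, rose by 1.59 ± 0.18.

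Complement genes rose in the classical pathway. Of 18 measured members 10 rose and none fell, with a median of 0.77. The list holds receptors too, and its largest change was that of Itgax, given above. The genes of the 3 C1q chains, which start the classical cascade and are made by microglia, changed together: C1qa read 41.7, 38.3 and 36.7 CPM in wild-type and 122, 91.0 and 118 CPM in the double genotype (1.51 ± 0.12). C1qb changed by 1.53 ± 0.11 and C1qc by 1.51 ± 0.10. Scaled by gene length, the mean levels of C1qa, C1qb and C1qc in the double genotype were 106, 113 and 45.1 CPM per kilobase. C4b (chr17:34947354-34962856), the next component, read 61.9, 39.9 and 42.5 CPM in wild-type and 261, 152 and 169 CPM in the double genotype, a change of 2.01 ± 0.20 (adjusted p = 0.000121). Library 1 of the double genotype was the highest. The anaphylatoxin receptor gene C3ar1 rose by 1.95 ± 0.24. C3 itself, the central component, read 3.37, 0.791 and 1.94 CPM against 5.13, 2.23 and 2.48 CPM and did not pass (adjusted p = 0.593).

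Lysosomal genes rose broadly and by moderate amounts. Of 28 measured members 18 rose and none fell, with a median of 0.54. Ctsd, the aspartic protease cathepsin D, read 191, 195 and 191 CPM in wild-type and 503, 411 and 525 CPM in the double genotype (1.32 ± 0.10, adjusted p = 9.35e-06). Ctss, the cathepsin of antigen-presenting cells, read 59.1, 54.2 and 56.5 CPM against 165, 157 and 201 CPM (1.62 ± 0.11). For both proteases the wild-type libraries lay within a few CPM of each other and far below all libraries of the double genotype. Hexa (0.84 ± 0.07), a hexosaminidase subunit gene, Ctsz (1.49 ± 0.14), Laptm5 (1.52 ± 0.11) and Grn (1.10 ± 0.10), the progranulin gene whose loss causes dementia, also rose. Man2b1, a lysosomal mannosidase, changed by 0.95 ± 0.10.

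Antigen presentation and interferon genes moved upward with fewer calls. B2m, the light chain of class I molecules, read 84.0, 75.5 and 85.7 CPM in wild-type and 182, 149 and 203 CPM in the double genotype (1.13 ± 0.12, adjusted p = 0.000159), and the heavy chain gene H2-D1 rose by 0.80 ± 0.13, with reads possibly shared among H2 copies. Of 12 measured class I genes 5 rose, a count of 2 without wild-type library 2 or 3 or double-genotype library 3, and 3 without 5xFAD library 1 or 3 or without the 3 libraries that stood apart. Of 8 class II genes 3 rose (H2-Ob, Cd74 and H2-DMa), 0 without wild-type library 1 or 2 or double-genotype library 3, and 1 without wild-type library 3. H2-Aa read 1.40, 1.58 and 2.35 CPM against 5.46, 3.84 and 2.77 CPM and H2-Ab1 1.86, 2.07 and 2.07 CPM against 5.53, 4.59 and 3.44 CPM. Neither passed (adjusted p = 0.138 and 0.0724), although their libraries did not overlap.

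Of 32 interferon response genes 3 rose (Irf8, Bst2 and Ifi27) and none fell, while the median of the list was 0.72. The count was 1 without wild-type library 2, without any single 5xFAD library, or without double-genotype library 2 or 3, and 8 without double-genotype library 1. Isg15, a ubiquitin-like protein induced by interferon, read 1.51, 0.973 and 0.899 CPM in wild-type and 2.00, 2.90 and 3.27 CPM in the double genotype (1.26 ± 0.33, adjusted p = 0.103). The chemokine gene Cxcl10 differed by 2.19 ± 0.52 (adjusted p = 0.0619).

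Among 19 measured cytokine and chemokine genes 6 rose, and 3 did without wild-type library 3 or double-genotype library 3. Tgfb1 rose by 0.98 ± 0.15, from 5.87, 5.72 and 5.46 CPM to 11.7, 12.1 and 9.99 CPM. The cytokines most used as signs of inflammation were near absent: Tnf held 0 to 2 counts, Il6 0 to 4 and Il1b 2 to 14 in any library, and none passed the count filter. Lymphocyte markers were as scarce, with 0 to 3 counts of Cd3e, Cd3d and Cd3g in each library. Pdcd1, the checkpoint receptor PD-1, read 0.233, 0 and 0 CPM in wild-type and 3.33, 1.42 and 2.03 CPM in the double genotype (adjusted p = 0.00314). Its log2 fold change has no firm size at so few wild-type counts and ranged from 4.09 to 8.16 over the alternatives, the highest without wild-type library 1.

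Reactive astrocyte genes rose in part. Of 19 measured members 7 rose, or 4 without double-genotype library 3, and none fell. Gfap (chr11:102778162-102791738), the intermediate filament of reactive astrocytes, read 272, 205 and 218 CPM in wild-type and 1064, 763 and 857 CPM in the double genotype (1.95 ± 0.13, adjusted p = 4.75e-06). Serpina3n, a secreted protease inhibitor, read 18.1, 17.8 and 20.3 CPM against 94.3, 49.2 and 51.6 CPM (1.80 ± 0.21). Osmr, the oncostatin M receptor, read 3.84, 3.77 and 2.97 CPM against 16.2, 9.85 and 11.0 CPM (1.80 ± 0.23). Library 1 of the double genotype was the highest for all 3 genes. The filament gene Vim showed the same library pattern without a call: 39.9, 38.7 and 47.1 CPM in wild-type against 89.4, 44.8 and 48.1 CPM (adjusted p = 0.299). Of 16 astrocyte identity genes none was called. Slc1a2, the main glutamate transporter, differed by 0.21 ± 0.08 (adjusted p = 0.258), and the summed level of the list was 7707 to 8513 CPM in wild-type and 7721 to 8390 CPM in the double genotype.

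**Figure D3:**
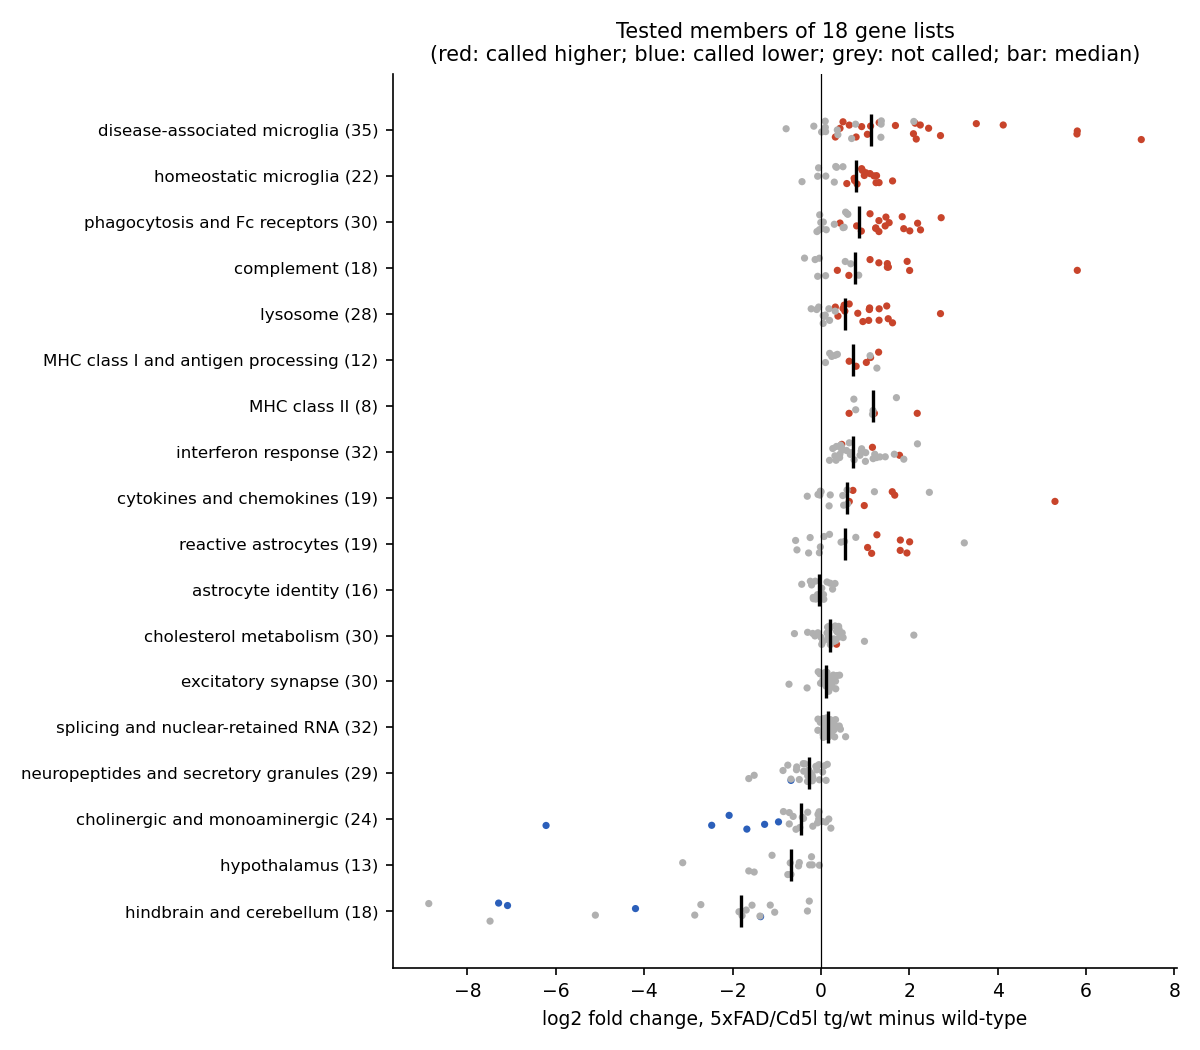
Log2 fold change, 5xFAD/Cd5l tg/wt minus wild-type, of every tested member of 18 gene lists, with the number of members in parentheses and a black bar at the median. Red members rose, blue members fell and grey members were not called: the medians of the microglial, complement and lysosomal lists lie to the right of 0, and those of the regional lists at the bottom to the left.

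Other gene groups showed few or no calls, beside 1.58% of all tested genes called in either direction. At that share, lists of this size hold few calls, so a low count does not set a group apart. Lipid synthesis genes, which CD5L is known to affect in fat cells, gave 2 calls in 32 measured members: Lpl, given above, and Mlxipl, a glucose-sensing transcription factor, at 1.37 ± 0.22 (2.15, 2.74 and 1.87 CPM against 6.46, 5.87 and 5.25 CPM). Fasn, the fatty acid synthase, differed by 0.13 ± 0.10 (adjusted p = 0.649). Cholesterol genes gave 1 call in 30, Fdft1 (squalene synthase) at 0.35 ± 0.07 (adjusted p = 0.0337), lost without wild-type library 2 or 3 (adjusted p = 0.0940 and 0.114), 5xFAD library 1 or 2 (0.0677 and 0.0713) or double-genotype library 2 or 3 (0.118 and 0.0550). The Fdft1 call was also lost without the 3 libraries that stood apart (0.0915). The synthesis genes Hmgcs1 (0.40 ± 0.10) and Sqle (0.41 ± 0.12) had positive differences that did not pass.

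Among 23 genes of amyloid processing 1 rose: Clu, the extracellular chaperone clusterin, read 760, 773 and 665 CPM in wild-type and 987, 880 and 981 CPM in the double genotype (0.37 ± 0.07, adjusted p = 0.0187). The call was lost without 5xFAD library 1 (adjusted p = 0.0521) or double-genotype library 3 (0.103). No call was made among 30 excitatory synapse genes, 20 interneuron genes, 31 vessel genes, 36 ribosomal protein genes, 13 mitochondrial genes or 23 immediate early genes. With 1.58% of all tested genes called, a lack of calls in such lists does not show that they were unchanged. Among 22 myelin genes the 1 call was Serpina3n, which the astrocyte list also holds; 4 members were called lower without double-genotype library 1, and 1 without the 3 libraries that stood apart. Mbp, the myelin basic protein gene, read 3642, 3166 and 3516 CPM against 2942, 1985 and 2638 CPM and did not pass (-0.45 ± 0.12, adjusted p = 0.102), although no library of the double genotype reached the lowest wild-type library.

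Of the 242 genes above wild-type, 29 were also called above 5xFAD, against 939 genes, or 5.34%, of all tested genes. Of the 35 genes below wild-type, 12 were also called below 5xFAD, against 156 genes, or 0.888%, of all tested genes. None was called in the opposite direction. Both comparisons share the same 3 5xFAD/Cd5l tg/wt libraries, so their overlap is not independent. The counts moved with single libraries: 4 and 2 without 5xFAD library 1, 2 and 4 without 5xFAD library 2, 125 and 241 without double-genotype library 1, 17 and 4 without library 2 of that genotype and 4 and 2 without its library 3. Leaving out wild-type library 1, 2 or 3 gave 19 and 7, 19 and 10, and 22 and 9, and they were 29 and 8 without 5xFAD library 3. In the list of splicing-related genes and nuclear-retained RNAs, in which the 5xFAD libraries were low, 27 of 32 measured genes were called above 5xFAD. Of 31 vessel genes 13 were called above 5xFAD. Long non-coding RNA genes took 1.146 to 1.195% of counts in 5xFAD, 1.351 to 1.531% in wild-type and 1.388 to 1.652% in the double genotype. The part of these differences in the calls against 5xFAD was not tested.

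Lilrb4a (chr10:51367052-51372707), an inhibitory immunoglobulin-like receptor of myeloid cells, separated all 3 genotypes. It read 0.291, 0.182 and 0.138 CPM in wild-type, 0.993, 0.617 and 1.34 CPM in 5xFAD and 2.93, 3.84 and 4.46 CPM in the double genotype. The change was 4.13 ± 0.41 against wild-type (adjusted p = 0.000121) and 1.94 ± 0.33 against 5xFAD (adjusted p = 0.00542), and both calls held in each fit that left out 1 library. The call for Lilrb4a against 5xFAD was lost without the 3 libraries that stood apart in regional genes (adjusted p = 0.0923). Near-identical Lilrb4 copies may share its reads. The phosphatase gene Ptpn6 (SHP-1), which inhibitory receptors recruit, read 3.02, 3.28 and 2.97 CPM in wild-type, 8.01, 7.18 and 8.23 CPM in 5xFAD and 12.3, 10.1 and 13.4 CPM in the double genotype. It was called against 5xFAD at 0.61 (adjusted p = 0.0330), and not without wild-type library 2 (adjusted p = 0.0521), 5xFAD library 1, 2 or 3 (0.116, 0.163 and 0.0615) or double-genotype library 3 (0.124). Nor was it called against 5xFAD without the 3 libraries that stood apart (0.0870).

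Some genes with similar levels in wild-type and 5xFAD brain were higher in the double genotype, among them Tcirg1, Parp12 and Naip5, which were singled out after their values were seen. Tcirg1, a subunit of the proton pump that acidifies lysosomes, read 12.7, 13.9 and 12.9 CPM in wild-type, 14.3, 13.4 and 12.9 CPM in 5xFAD and 21.2, 18.5 and 21.9 CPM in the double genotype. Its change was 0.64 ± 0.11 against wild-type (adjusted p = 0.00796; 0.0580 without double-genotype library 3) and 0.60 against 5xFAD (adjusted p = 0.00730; 0.0514 without 5xFAD library 2). Parp12, an interferon-induced ADP-ribosyltransferase, read 14.0, 10.8 and 11.6 CPM in wild-type, 10.7, 9.26 and 13.3 CPM in 5xFAD and 19.9, 17.3 and 21.2 CPM in the double genotype. Its change was 0.68 ± 0.15 against wild-type (adjusted p = 0.0449), lost without wild-type library 2 or 3 (adjusted p = 0.136 and 0.138), 5xFAD library 1 (0.0899) or any single double-genotype library (0.0504, 0.0530 and 0.184 without library 1, 2 and 3). That call was also lost without the 3 libraries that stood apart in regional genes (0.146). Against 5xFAD the change was 0.82 (adjusted p = 0.00879, and 0.0574 and 0.0643 without 5xFAD library 1 and 2).

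The cytokine gene Il1a read 0.640, 0.851 and 0.691 CPM in wild-type, 0.794, 0.730 and 1.00 CPM in 5xFAD and 2.26, 2.16 and 2.31 CPM in the double genotype. Its change was 1.62 ± 0.29 against wild-type (adjusted p = 0.0128) and 1.41 against 5xFAD (adjusted p = 0.0140). The first was lost without wild-type library 1 or 3 (adjusted p = 0.0660 and 0.0711) or double-genotype library 3 (0.0657), the second without 5xFAD library 1 or 2 (0.0814 and 0.0965) or double-genotype library 3 (0.0569). Naip5, an inflammasome sensor of bacterial flagellin with close genomic copies, read 1.45, 1.64 and 0.622 CPM in wild-type, 1.32, 0.842 and 1.74 CPM in 5xFAD and 3.60, 5.73 and 5.14 CPM in the double genotype. Its change was 1.94 ± 0.35 against wild-type (adjusted p = 0.0126) and 1.90 against 5xFAD (adjusted p = 0.00812). The first was lost without double-genotype library 2 or 3 (0.0550 and 0.0669), the second without 5xFAD library 2 (0.0627). Without the 3 libraries that stood apart in regional genes, both calls were lost for Il1a (0.164 and 0.116) and for Naip5 (0.227 and 0.0717).

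C4b, described above, read 102, 92.7 and 112 CPM in 5xFAD, below all 3 libraries of the double genotype. It was higher than in 5xFAD by 0.92 ± 0.19 (adjusted p = 0.0161; 0.0814 and 0.101 without 5xFAD library 1 and 2). The mannosidase gene Man2b1 read 67.7, 62.4 and 79.4 CPM in 5xFAD and 106, 89.4 and 93.7 CPM in the double genotype, a change of 0.46 (adjusted p = 0.0209; 0.109, 0.130 and 0.0636 without 5xFAD library 1, 2 and double-genotype library 3).

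**Figure D4:**
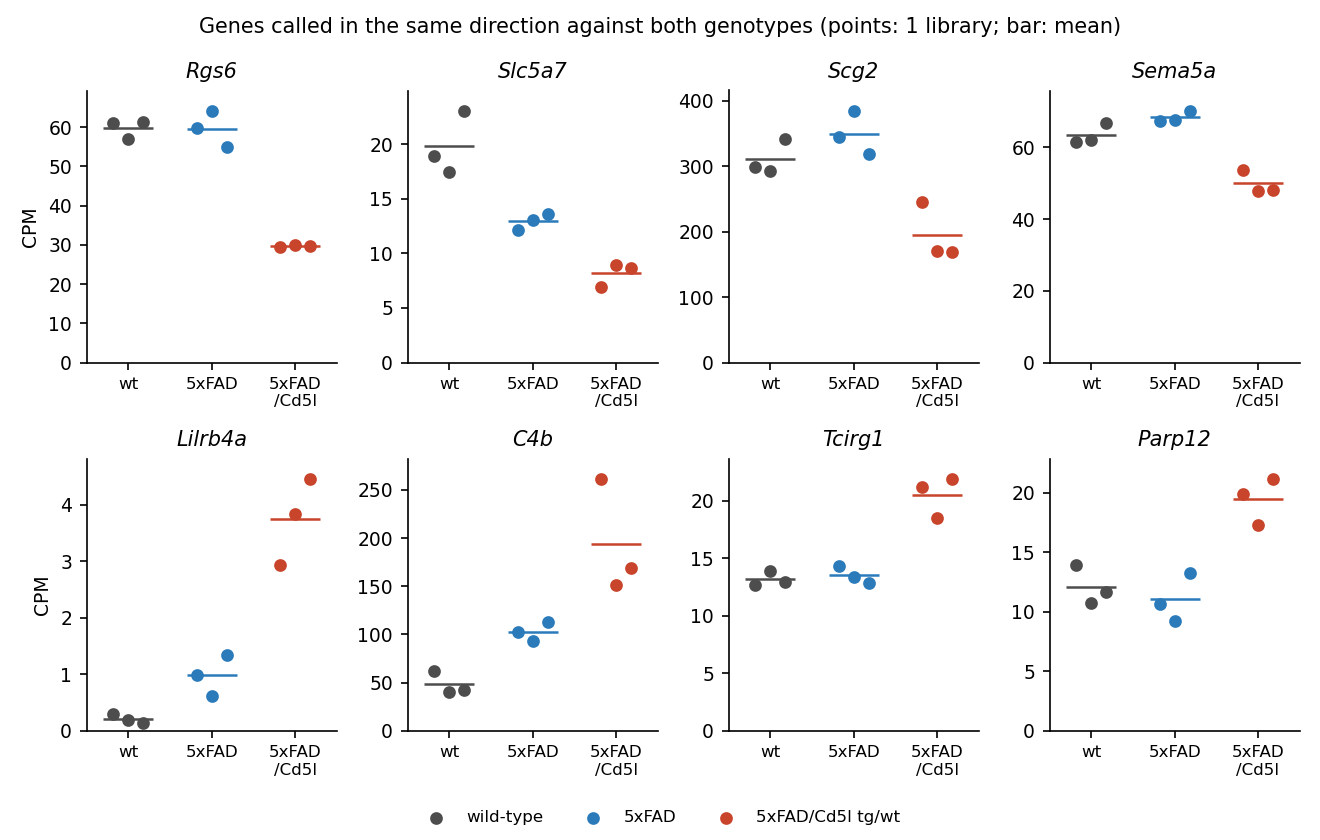
Level in CPM (linear axis from 0) of 8 genes called in the same direction against wild-type and against 5xFAD, by library, with bars at the means of 3. Rgs6 lies near 30 CPM in every double-genotype library and between 54.9 and 64.2 CPM in all others, and Lilrb4a and C4b step upward over the 3 genotypes.

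Rgs6 was the falling gene of smallest p. Rgs6 (chr12:82635066-83208830) encodes a regulator that speeds the shut-off of inhibitory G proteins in neurons and heart. It read 60.9, 56.9 and 61.3 CPM in wild-type, 59.8, 64.2 and 54.9 CPM in 5xFAD and 29.6, 29.9 and 29.8 CPM in 5xFAD/Cd5l tg/wt. The 3 libraries of the double genotype lay within 1 CPM of each other and below all others. The log2 change of Rgs6 was -1.004 ± 0.08 against wild-type (adjusted p = 1.37e-05) and -1.004 ± 0.08 against 5xFAD (adjusted p = 8.77e-05), and both calls held under every alternative and every left-out library. Of the 14 measured genes of this regulator family and its partners, Rgs6 was the only one called against wild-type. Against 5xFAD, Rgs5 and Rgs11 were called higher and Rgs16 lower as well. Gnb5, the beta subunit that RGS6 protein binds, differed by -0.13 ± 0.09 (adjusted p = 0.596). Of 25 tested genes within 1 megabase of Rgs6 none was called. Dpf3, the nearest in size of change, read 4.01, 3.65 and 10.7 CPM against 2.93, 3.78 and 2.31 CPM (-1.02 ± 0.37, adjusted p = 0.264). Of 38 tested genes within 1 megabase of endogenous Cd5l 1 was called, Fcrls.

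The list of cholinergic and monoaminergic genes held the most falling genes of any list. Of its 24 differences 20 were negative and 4 positive. Of 24 measured members 6 fell and none rose, with a median of -0.45 and 0.199% of all tested genes falling. The falling count was 2 without double-genotype library 3, 3 without wild-type library 1 or 3 or 5xFAD library 1, and 13 without double-genotype library 1. Without the 3 libraries that stood apart in regional genes, 3 members were lower and 5 were higher. Slc5a7 (chr17:54580618-54606062), the choline transporter that supplies acetylcholine synthesis, read 18.9, 17.5 and 23.1 CPM in wild-type, 12.2, 13.1 and 13.6 CPM in 5xFAD and 6.92, 8.97 and 8.63 CPM in the double genotype. It fell by 1.27 ± 0.14 on the log2 scale (adjusted p = 0.000313). The call for Slc5a7 against 5xFAD (-0.66, adjusted p = 0.0197) was lost without 5xFAD library 1, 2 or 3 (0.0590, 0.0869 and 0.0535) or double-genotype library 3 (0.0520). Slc18a3, the vesicular acetylcholine transporter, read 8.14, 6.20 and 6.09 CPM in wild-type and 2.13, 1.69 and 2.54 CPM in the double genotype (-1.68 ± 0.26, adjusted p = 0.00401). Chat, the enzyme that makes acetylcholine, read 7.50, 6.26 and 8.51 CPM against 3.40, 4.86 and 3.22 CPM and was called at -0.96 ± 0.21 (adjusted p = 0.0431), a call lost in 6 of the 9 fits that left out 1 library, with the highest adjusted p of 0.174 without double-genotype library 3. Without the 3 libraries that stood apart the Chat call was lost as well (0.114).

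Slc6a2, the noradrenaline transporter, held 102 counts over the wild-type libraries and 1 over the double genotype, a wild-type to double genotype ratio of 101 (17.7 to 4020, 95%, counting error only). By library it read 1.98, 1.46 and 3.04 CPM in wild-type, 0.265, 1.07 and 0 CPM in 5xFAD and 0.0666, 0 and 0 CPM in the double genotype. The call (adjusted p = 0.0115) was lost without double-genotype library 2 or 3 (0.0550 and 0.0857). Nefh, the heavy neurofilament gene, and Prph fell as well. Nefh read 160, 134 and 213 CPM against 90.9, 71.3 and 98.2 CPM (-0.96 ± 0.17, adjusted p = 0.0108), and Prph (peripherin), found in motor and sensory neurons, 9.88, 4.93 and 8.02 CPM against 1.67, 2.56 and 2.20 CPM (-1.82 ± 0.26, adjusted p = 0.00256).

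The medians of regional marker genes differed in sign. Cerebral cortex genes had a median of 0.26 (1 of 15 called higher, beside 1.38% of all tested genes) and hippocampal genes also 0.26 (0 of 12 called), while striatal genes were at -0.09 (0 of 20) and thalamic genes at -0.45 (0 of 12). The cortex call was lost without wild-type library 2 or 3, any single 5xFAD library, or double-genotype library 2 or 3. It was also lost without the 3 libraries that stood apart. All 18 measured hindbrain and cerebellum genes had negative differences, with a median of -1.82. Of these 4 fell, beside 0.199% of all tested genes. The count was 1 without 5xFAD library 1 or 3 or double-genotype library 2 or 3 or without the 3 libraries that stood apart, 2 without 5xFAD library 2, and 13 without wild-type library 2. The list summed to 1058, 954 and 2548 CPM in wild-type, 938, 1015 and 943 CPM in 5xFAD and 816, 983 and 850 CPM in the double genotype. Slc6a5, the glycine transporter of brainstem and spinal cord neurons, read 28.9, 11.7 and 57.7 CPM in wild-type and 2.66, 0.337 and 2.26 CPM in the double genotype (-4.20 ± 0.69, adjusted p = 0.00638). The call for Slc6a5 was lost with limma-voom (adjusted p = 0.115) and without the 3 libraries that stood apart (0.0655). Hoxb5, a homeobox gene of the caudal brainstem and spinal cord, held 40, 4 and 115 counts in the wild-type libraries, 0, 5 and 0 in 5xFAD and 0, 0 and 2 in the double genotype. The part of this difference in caudal tissue in the falling cholinergic, noradrenergic and neurofilament genes was not tested. Cbln3, at -7.30 ± 1.53 (adjusted p = 0.0329), moved with wild-type library 3, at 192 CPM: without that library it was -4.58 (adjusted p = 0.0371). The call for Cbln3 was lost without 5xFAD library 1 or 3 (adjusted p = 0.0570 and 0.0558) or double-genotype library 2 or 3 (0.135 and 0.162). It was also lost with limma-voom (0.549), with only the 6 libraries compared (0.0882) and without the 3 libraries that stood apart (0.158).

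No hypothalamic gene was called: 0 of 13 measured members, all 13 with negative differences and a median of -0.68. The list summed to 384, 334 and 333 CPM in wild-type and to 473, 160 and 161 CPM in the double genotype. In library 1 of the double genotype Oxt (oxytocin) read 14.4 CPM and Avp (vasopressin) 16.8 CPM, while libraries 2 and 3 read 0 and 0 CPM for Oxt and 0.405 and 0.339 CPM for Avp.

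**Figure D5:**
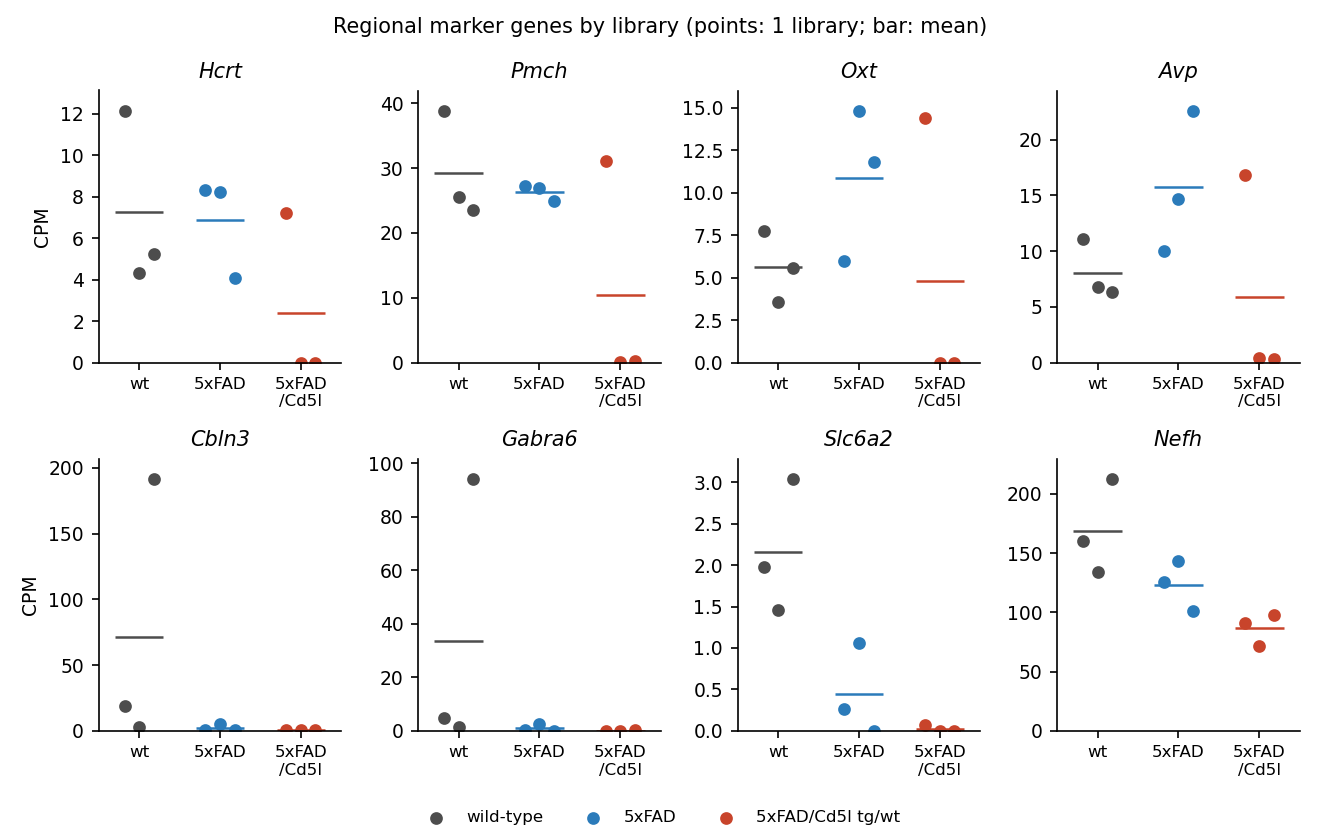
Level in CPM (linear axis from 0) of 4 hypothalamic genes (top row) and of Cbln3, Gabra6, Slc6a2 and Nefh (bottom row) by library, with bars at the means of 3. The hypothalamic genes are near 0 in 5xFAD/Cd5l tg/wt libraries 2 and 3 alone, and the cerebellar genes Cbln3 and Gabra6 are high in wild-type library 3 alone.

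Scg2, Chrna3 and Sema5a were also called below both genotypes. Scg2, the secretory granule protein secretogranin II, read 298, 293 and 341 CPM in wild-type, 345, 385 and 319 CPM in 5xFAD and 245, 170 and 169 CPM in the double genotype. It was called at -0.68 ± 0.13 against wild-type (adjusted p = 0.0203) and -0.85 against 5xFAD (adjusted p = 0.00291). The first call was lost without wild-type library 1 or 3 (adjusted p = 0.0515 and 0.0771) or double-genotype library 2 or 3 (0.0810 and 0.110). Libraries 2 and 3, which lacked hypothalamic transcripts, were its lowest, and the part of this in the difference was not tested. Sema5a, an axon guidance gene, read 61.6, 62.2 and 66.9 CPM in wild-type, 67.4, 67.6 and 70.3 CPM in 5xFAD and 53.8, 47.9 and 48.2 CPM in the double genotype, a change of -0.45 against 5xFAD (adjusted p = 0.00443). Its call against wild-type (-0.35, adjusted p = 0.0383) was lost in 8 of the 9 fits that left out 1 library. Chrna3, a nicotinic receptor subunit, showed the same order, with 2.09, 1.95 and 2.49 CPM in wild-type, 3.04, 3.20 and 4.08 CPM in 5xFAD and 0.999, 0.270 and 0.282 CPM in the double genotype. Its difference was -2.08 ± 0.42 against wild-type (adjusted p = 0.0252), lost without wild-type library 1 or 3 (0.0639 and 0.0850), 5xFAD library 1 (0.0521) or double-genotype library 2 or 3 (0.0973 and 0.133). The call was also lost without the 3 libraries that stood apart in regional genes (adjusted p = 0.333). Against 5xFAD, Chrna3 differed by -2.74 (adjusted p = 0.00222), a call kept in all settings. Libraries 2 and 3 were the lowest for Chrna3 too, and the part of this in its difference was not tested.

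Pcp4l1, a calmodulin-binding peptide gene, was lower in all 3 libraries of the double genotype, of which library 1 was the highest: 181, 176 and 200 CPM in wild-type, 172, 163 and 179 CPM in 5xFAD and 142, 126 and 136 CPM in 5xFAD/Cd5l tg/wt (-0.46 ± 0.07, adjusted p = 0.00561). Syt6, a synaptotagmin, read 44.7, 45.7 and 52.8 CPM in wild-type and 32.6, 32.6 and 30.8 CPM in the double genotype (-0.58 ± 0.09, adjusted p = 0.00561). Both calls against wild-type held in each fit that left out 1 library, and neither held without the 3 libraries that stood apart (adjusted p = 0.0607 for Pcp4l1 and 0.0722 for Syt6). Both were also called below 5xFAD, Pcp4l1 at -0.35 (adjusted p = 0.0171) and Syt6 at -0.42 (adjusted p = 0.0209). Against 5xFAD, Pcp4l1 lost its call without 5xFAD library 1 or 3 (0.0814 and 0.0556) or double-genotype library 2 or 3 (0.0665 and 0.0520). That call was also lost without the 3 libraries that stood apart (0.0616). Syt6 lost its call against 5xFAD without 5xFAD library 1 or 2 (0.0825 and 0.119) or double-genotype library 2 or 3 (0.0545 and 0.0795).

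Among genes with few counts, Olfr111, an olfactory receptor gene, held 99 counts in the double genotype and 2 in wild-type, a ratio of 50.1 (13.5 to 419, 95%, counting error only). The protease gene Ctse held 62 counts against 0, a ratio with a lower 95% limit of 16.5 for counting error only. Hcar2, the receptor of ketone bodies and niacin, held 65 counts against 3, a ratio of 21.9 (7.17 to 109). Its call (adjusted p = 0.0285) was lost without any single wild-type library (0.112, 0.0591 and 0.0996 without library 1, 2 and 3), 5xFAD library 1 (0.0560) or double-genotype library 3 (0.0580).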

How the data were processed

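Whole-brain total RNA (cerebellum removed) of 3 mice of each genotype was sequenced, per the labels. The authors deposited raw read counts per gene, whole numbers for 56748 genes, on genome build GRCm39, per the submitters' processing notes. The aligner, counter, strandedness and annotation release are each not given in the sources used here, so reads of overlapping or antisense genes cannot be separated. Gene lengths are a further deposited column.

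Genes were kept with edgeR's filterByExpr (minimum count 10, total 15, by genotype), which removed 0.121 to 0.161% of counts. Libraries were scaled by TMM (factors 0.9874 to 1.018). All 9 libraries entered 1 quasi-likelihood fit (edgeR 4.0.16, R 4.3.3) with contrasts of 5xFAD/Cd5l tg/wt against wild-type and against 5xFAD. P-values were adjusted over 17575 genes by Benjamini-Hochberg and called under 0.05. They weigh each difference against the spread between mice of a genotype, estimated from all 9 libraries. The standard error is the log2 fold change divided by the root of F. CPM are scaled by TMM. The fit was tested on simulated data, drawn independently for each gene and library. These held no regional differences between libraries of a genotype, so the test does not cover them.

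Named genes were Cd5l, App, Thy1 and Psen2; the 15 rising and 15 falling called genes of smallest p, and the 10 each way of largest fold change, with at least 1 CPM in the higher group and no overlap between libraries; up to 6 members per list by p; and up to 10 each way called against both genotypes. Avp, C3, Cd37, Cd9, Ctsz, Cx3cr1, Dpf3, Fasn, Fcgr1, Gnb5, Gpnmb, Grn, Havcr2, Hoxb5, Inpp5d, Isg15, Itgam, Lyz2, Naip5, Oxt, P2ry12, Parp12, Spi1, Spp1, Tcirg1, Tmem119, Vim and genes below the filter were picked after their values were seen. Some genes that the rule names are not reported here. The 40 lists hold 887 members but 828 distinct genes, since lists share members, so some genes count in more than 1 list. Of the 887 members 73 were not tested, 6 of them for lack of a symbol in the table. The members and lists were chosen with earlier results of these data known. Same-number libraries did not pair: their residuals correlated by -0.0855 to 0.154 between the 2 genotypes. Promoter windows are RefSeq's (GRCm38.p6). Alternatives covered scaling, filters, DESeq2 1.42.0, limma-voom (limma 3.58.1), the libraries fitted and thresholds. Libraries of a genotype differed beyond counting noise.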

Additional observations from a re-analysis of the deposited data

How the results depend on the processing

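Against wild-type edgeR gave 277 genes (242 higher, 35 lower). With no filter on low counts it gave 1062 (522 and 540, including all 277), with DESeq2 472 (334 and 138), with only the 6 libraries compared 176 (165 and 11), at an adjusted p under 0.01 147 (139 and 8), and for a change over 1.2-fold 180 (166 and 14). Without the 3 libraries apart in regional genes 108 genes were lower. Leaving out 1 library gave 158 to 686 genes, 146 to 368 higher and 12 to 318 lower. Genes beyond both genotypes numbered 29 higher and 12 lower, 146 and 262 with no filter, 50 and 53 with DESeq2, and 39 and 75 without the 3 libraries; leaving out 1 library gave 2 to 125 and 2 to 241. The replicate block gave 240 genes (211 higher, 29 lower; 224 shared) and 21 and 9 beyond both genotypes. Library numbers did not pair the mice, and other scalings gave 260 to 277 genes. Of 126 called genes followed, 66 kept their call in all 23 settings and 74 in all fits leaving out 1 library; against 5xFAD these were 6 and 7 of 41. Leaving out 1 library moved App from -0.0349 (without wild-type library 3) to 0.0406 (without wild-type library 1), with 0.0228 without double-genotype library 3. Spp1 turned to 0.0449 without the 3 libraries; none was called. The cause of these shifts was not tested. At these depths genes under about 10 counts were not tested.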
